A study of Oryctolagus cuniculus with 20 samples.

Results

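The genes described here are splicing and RNA helicase factors of the rabbit tricuspid valve, 51 genes out of the 23669 in the deposited count table. They were taken from the study's list of differentially expressed genes (DEGs) by their symbols, which begin with HNRNP, SRSF, SRRM, SF3, RBM, SNRP, SNRNP, PRPF, DDX, DHX, LSM, CPSF or CSTF, and by an identifier that occurs in the count table. That list was made by comparing treated with non-treated valves in the same 20 animals. Fold changes of these genes against non-treated valves are therefore a description of how they were chosen. Where the text says which of them passed the threshold of a test against non-treated valves, this is a description as well, since the choice largely fixes it. The genes fall into 9 families: 9 heterogeneous nuclear ribonucleoproteins (hnRNP), 5 SR and SRRM proteins, 5 snRNP and LSM proteins, 3 SF3 proteins, 6 PRPF proteins, 13 RBM proteins, 6 DDX helicases, 1 DHX helicase and 3 CPSF and CSTF proteins. HNRNPA1, LSM8 and SF3B4 were listed as well, but their identifiers were printed in a shortened form, and they were not analysed here. The rule also left out 4 listed genes whose symbols begin with HNRNP or RBM, so that these families are not complete.

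Introns are removed from precursor RNA by the spliceosome, which is built on each intron from small nuclear ribonucleoproteins (snRNPs). The Sm and LSM proteins form rings around the RNA of these particles, SF3b helps the U2 snRNP to hold the branch point, and PRPF proteins belong to the U4/U6.U5 tri-snRNP or act during activation and catalysis. DEAD-box (DDX) and DEAH-box (DHX) helicases use ATP to remodel RNA and its proteins at these and other steps. SR proteins mostly favour the use of an exon, hnRNP proteins often oppose it, and many RBM proteins act on selected transcripts. CPSF and CSTF proteins take part in the cleavage of the transcript at its 3′ end, where the poly(A) tail is added. In the heart, RBM20 is known for its control of the splicing of titin.

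Tricuspid valves were taken from female New Zealand white rabbits, 8 weeks old at the start, which received serotonin (80 mg/kg per day), pergolide (0.5 mg/kg per day), dexfenfluramine (20 mg/kg per day) or water without drug for 16 weeks, with 5 valves in each group. The doses are those of the sample labels and the methods, while the results text of the study states a lower dose of dexfenfluramine. Serotonin is the natural ligand of the 5-HT receptors, pergolide is an ergot derivative and dexfenfluramine an amphetaminic anorectic. Treatment was by mouth, and each sample is the RNA of a dissected valve with all its cells.

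Between 3247091 and 5921025 reads were counted on genes in each valve. Levels are in CPM, the reads of a gene relative to all reads counted in its library, with TMM factors that rescale each library so that most genes keep the same level. A single gene, ENSOCUG00000029084, held on average 40.7% of the reads of a non-treated valve and 29.1% after dexfenfluramine. The tissue label was checked with marker genes. The 7 markers of interstitial cells with a symbol, among them VIM, DCN and COL1A1, had at least 104 reads in each valve, and 5 of the 10 markers of cardiomyocytes, TTN, TNNT2, MYH7, ACTC1 and PLN, had at least 569. Reads of cardiac muscle genes were thus found in all 20 valves. Markers of macrophages and of erythroid cells had no symbol in the list and were not analysed here. In such bulk samples, fewer cells of a type and less RNA per cell cannot be told apart.

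Of the 51 genes, 49 passed the filter on low counts, with means of 36.0 to 2514 reads per valve. The other two were CSTF2T, a subunit of the cleavage stimulation factor, and HNRNPA1L2, a copy of an hnRNP gene. CSTF2T had 33 reads in the 5 non-treated valves together, 27 after serotonin and 18 after each drug. HNRNPA1L2 had 16, 11, 9 and 5 reads in the same order. Both are close copies of other genes, so that their few reads could also come from CSTF2 or HNRNPA1. In the RefSeq annotation of assembly mOryCun1.1, where 48 of the 51 genes were matched by symbol, 19 overlap another annotated gene, among them CSTF3, DHX38, HNRNPAB, HNRNPM, LSM3 and PRPF18. The strand setting of the counting is not given in the sources used here, and the reads were counted on another assembly, oryCun2. How such overlaps affected the counts was not tested.

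Most of the 49 genes had lower mean levels in both drug groups than in non-treated valves, and none was called after serotonin. After pergolide, 30 were called lower and 8 higher than in non-treated valves (adjusted p-value under 0.05, edgeR's quasi-likelihood test), beside 12.7% of all 8683 tested genes called lower and 12.1% called higher. After dexfenfluramine, 29 were called lower and 7 higher, beside 15.4% and 13.5% of all genes. The absence of calls after serotonin stood beside 1.19% of all genes called. At an unadjusted p-value under 0.05, 20 of the 49 were higher after serotonin and none was lower, beside 15.8% of all genes in either direction. DESeq2 called 8 of the 49 after serotonin, beside 2.73% of all genes with an adjusted p-value, limma-voom 1, beside 1.31% of all genes, and limma-voom with 4 surrogate variables from svaseq 11, beside 2.73%. Without non-treated replicate 1 edgeR called 8, beside 1.72% of all genes in that fit, without serotonin replicate 3 it called 4, beside 1.49%, and without non-treated replicate 3 it called 2, beside 2.93%. Since the genes were chosen from these comparisons, nothing is read from these shares.

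The median log2 fold change of the 49 genes was -0.36 after pergolide, -0.38 after dexfenfluramine and 0.15 after serotonin. The same medians over all tested genes were 0.02, 0.03 and 0.01. The fold change after serotonin was above 0 for 39 of the 49 genes, while it was above 0 for 52.5% of all tested genes and for 53.9% of the 3407 other tested genes with a symbol in the study's list. All 3 comparisons share the 5 non-treated valves, so that a low or high level there moves the 3 values of a gene together.

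**Figure D1:**
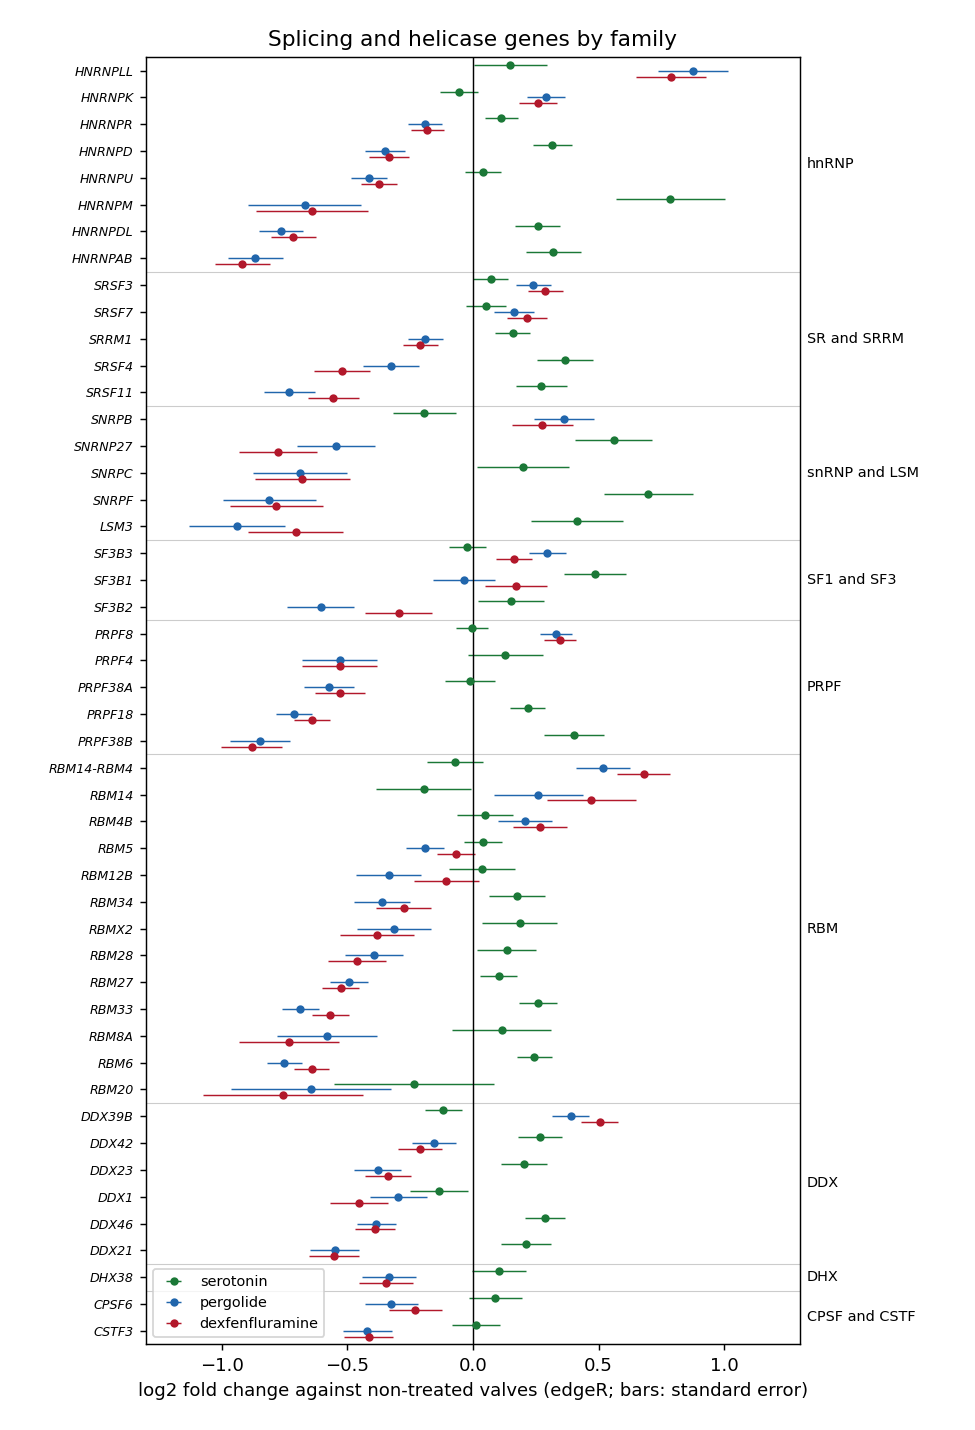
Log2 fold change of the tested genes (all but 1 of the 49) against non-treated valves (x axis), after serotonin (green), pergolide (blue) and dexfenfluramine (red), with bars of 1 standard error and the genes grouped by family. Blue and red points lie close to each other for nearly all genes, below 0 for most of them and above 0 for 1 or more members of the hnRNP, SR, snRNP, SF3, PRPF, RBM and DDX families, whereas most green points lie above 0.

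The order of the group means was also described. In 37 of the 49 genes the means of both drugs lay under both other means, and in 11 genes they lay over both, beside 30.2% and 34.5% of all tested genes. In 34 of the 49 genes, or 69.4%, the serotonin mean was the highest and both drug means the lowest. This order was found in 17.9% of all tested genes and in 21.2% of the other tested genes of the study's list. The 11 genes with the opposite position of the drugs were DDX39B, HNRNPK, HNRNPLL, PRPF8, RBM14, RBM14-RBM4, RBM4B, SF3B3, SNRPB, SRSF3 and SRSF7. SF3B1, the branch point protein of SF3b, belonged to neither set, with log2 fold changes of 0.49 after serotonin, -0.04 after pergolide and 0.17 after dexfenfluramine.

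Over the 37 genes with lower drug means, the median difference of a valve from the non-treated mean lay between -0.10 and 0.17 (log2) without treatment and between 0.11 and 0.31 after serotonin. It lay between -0.58 and -0.37 after pergolide and between -0.54 and -0.37 after dexfenfluramine. Each drug valve therefore lay below each other valve. Non-treated replicate 1, at 0.17, was the only non-treated valve within the range of the serotonin valves. Over the 11 genes with higher drug means, the non-treated valves lay between -0.10 and 0.06, the serotonin valves between -0.07 and 0.12, the pergolide valves between 0.26 and 0.38 and the dexfenfluramine valves between 0.23 and 0.41. Both sets were formed from these values, so that the separation of the drug valves is a description. Over all tested genes the median of a valve stayed between 0.00 and 0.06.

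**Figure D2:**
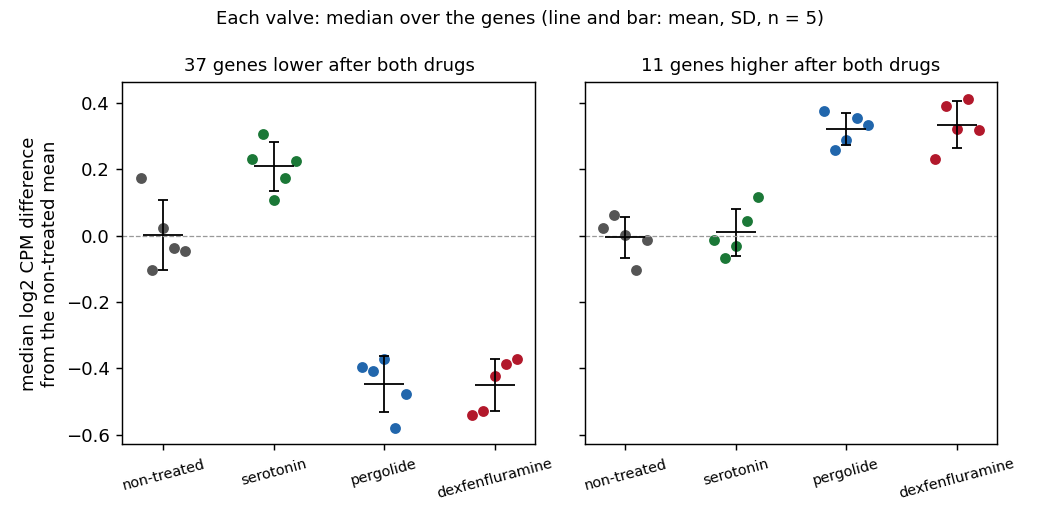
Median log2 CPM difference from the non-treated mean (y axis) in each of the 20 valves, over the 37 genes with lower (left) and the 11 genes with higher (right) drug means, with the mean and SD of the 5 valves of a group. In both panels the 10 drug valves lie apart from the 10 other valves, and in the left panel the serotonin valves, from 0.11 to 0.31, lie above 4 of the 5 non-treated valves.

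For 25 of the 49 genes, no value of the 10 drug valves overlapped with the 10 non-treated and serotonin valves, beside 7.53% of all tested genes. In 20 of these the drug valves were lower (4.8% of all genes) and in 5, namely DDX39B, PRPF8, RBM14-RBM4, HNRNPK and HNRNPLL, they were higher (2.73%). With each valve left out in turn, which was decided after the data were seen, the number lay between 25 and 28. Leaving out a valve cannot create an overlap, so that the number could not fall below 25. The share of all tested genes is not given for these cases, and nothing is read from the range. Serotonin valves were all above the non-treated valves for 7 of 49 genes, beside 2.05% of all genes, among them PRPF18, RBM6, SRRM1 and LSM3.

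Markers of other cells moved with the drugs too. The summed level of the interstitial markers was between 5069 and 7519 CPM in the non-treated group, between 5660 and 7534 with serotonin, between 6886 and 10437 with pergolide and between 7627 and 10776 with dexfenfluramine. Of these 7 markers, 5 were called higher after pergolide and 4 after dexfenfluramine, and none was called lower. The summed level of the cardiomyocyte markers was between 47457 and 145022 CPM in the non-treated group, between 51271 and 100551 with serotonin, between 46292 and 88284 with pergolide and between 12133 and 67785 with dexfenfluramine. TNNT2 was called lower after pergolide, and TNNT2, MYH7 and PLN were called lower after dexfenfluramine. The summed level of the 3 adipocyte markers with a symbol, ADIPOQ, CIDEA and LEP, was between 21.9 and 70.01 CPM in the non-treated group, between 28.5 and 133 with serotonin, between 55.6 and 176 with pergolide and between 3.24 and 100.2 with dexfenfluramine. All 3 were called higher after pergolide, with log2 fold changes of 1.46 (SE 0.51), 2.86 (SE 0.66) and 2.25 (SE 0.71), and none after dexfenfluramine. The lowest count of an adipocyte marker in a valve was 0 reads. PECAM1 of endothelial cells was called lower after pergolide, by edgeR at -0.73 (log2), and was at -0.32 after dexfenfluramine, which was not called. MYH11 of smooth muscle cells was called lower after dexfenfluramine, at -1.41, and was at -0.55 after pergolide, which was not called. None of these 5 genes was called after serotonin. All these markers have their symbols from the study's DEG list and are therefore selected as well. The part of these cells in the levels of the splicing genes was not tested.

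The snRNP and LSM genes had the lowest family medians after the drugs, -0.69 after pergolide and -0.70 after dexfenfluramine. Of the 5 snRNP and LSM genes, 4 had log2 fold changes below 0 after each drug, and SNRPB had values above 0, of which that after dexfenfluramine did not pass the threshold. SNRPF and SNRPB encode proteins of the Sm ring that surrounds the U1, U2, U4 and U5 RNAs. SNRPF (ENSOCUG00000010925) had 20.2, 13.8, 14.9, 13.8 and 16.8 CPM in the non-treated valves, 24.9, 36.7, 17.5, 26.3 and 23.3 after serotonin, 10.3, 9.74, 9.48, 6.86 and 8.72 after pergolide and 8.39, 9.13, 7.56, 8.20 and 12.5 after dexfenfluramine. Each drug valve was lower than each other valve, and the serotonin valves were above the non-treated ones except for replicate 3, which lay below non-treated replicate 1. Its log2 fold change was 0.70 (SE 0.18) after serotonin, -0.81 (SE 0.18) after pergolide and -0.78 (SE 0.18) after dexfenfluramine. SNRPB (ENSOCUG00000014042) had 19.1, 17.1, 17.4, 12.9 and 21.4 CPM in the non-treated valves, 12.3, 15.8, 15.5, 14.5 and 19.1 after serotonin, 22.2, 22.6, 23.2, 21.8 and 23.5 after pergolide and 20.01, 22.2, 21.8, 23.3 and 19.4 after dexfenfluramine. Here the pergolide valves were all above the non-treated and serotonin valves, while dexfenfluramine valves overlapped with the highest non-treated valve. The fold changes of SNRPB were -0.19 (SE 0.13), 0.36 (SE 0.12) and 0.28 (SE 0.12) in the same order, so that it stood opposite to SNRPF, with which it shares the ring.

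LSM3 belongs to the ring on U6 RNA and to the LSM ring of cytoplasmic mRNA decay. LSM3 (ENSOCUG00000027653) had 15.2, 13.8, 14.9, 12.4 and 14.96 CPM in the non-treated valves, 16.3, 23.7, 15.8, 19.8 and 19.7 after serotonin, 8.43, 9.23, 7.80, 4.57 and 7.12 after pergolide and 6.24, 8.62, 6.48, 10.1 and 12.02 after dexfenfluramine. The drug valves were all lower and the serotonin valves all higher than the non-treated ones, although the highest dexfenfluramine valve, replicate 5, came within 1 CPM of the lowest non-treated valve. The log2 fold changes were 0.42 (SE 0.18) after serotonin, -0.94 (SE 0.19) after pergolide and -0.70 (SE 0.19) after dexfenfluramine. SNRNP27, a protein of the tri-snRNP, had a like course. SNRNP27 (ENSOCUG00000022967) had 59.9, 42.5, 34.6, 45.9 and 39.8 CPM in the non-treated valves, 53.8, 83.9, 49.97, 74.01 and 64.9 after serotonin, 33.9, 27.8, 33.7, 29.2 and 26.9 after pergolide and 20.4, 27.4, 22.3, 30.8 and 27.9 after dexfenfluramine. No drug valve reached the level of a non-treated valve, and serotonin valves overlapped with non-treated replicate 1 alone. Its log2 fold changes were 0.56 (SE 0.15), -0.55 (SE 0.16) and -0.78 (SE 0.16). SNRPC, a protein of the U1 snRNP, ranged from 7.37 to 14.8 CPM in non-treated and serotonin valves and from 4.68 to 7.38 CPM after the drugs, with fold changes of -0.69 and -0.68. With surrogate variables in limma-voom, the dexfenfluramine values were -0.43 for SNRPF, -0.42 for SNRNP27 and -0.36 for LSM3.

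Proteins of SF3b, the part of the U2 snRNP at the branch point, differed in the sign of their fold changes. SF3B3 (ENSOCUG00000004139) had 62.4, 63.9, 57.9, 58.5 and 65.8 CPM in the non-treated valves, 52.2, 58.9, 61.7, 63.6 and 67.7 after serotonin, 81.8, 72.1, 78.8, 74.2 and 72.2 after pergolide and 67.6, 67.7, 68.9, 73.6 and 67.8 after dexfenfluramine. All valves of both drugs were above the non-treated valves. The pergolide valves were also above the serotonin valves, whereas the highest serotonin valve reached the dexfenfluramine valves. SF3B3 had log2 fold changes of 0.30 (SE 0.07) after pergolide and 0.16 (SE 0.07) after dexfenfluramine, and of -0.02 after serotonin. SF3B2 (ENSOCUG00000015722) had 126, 117, 99.5, 78.8 and 116 CPM in the non-treated valves, 125, 111, 129, 99.2 and 133 after serotonin, 55.9, 64.2, 75.02, 76.7 and 81.3 after pergolide and 72.9, 86.5, 111, 83.3 and 84.3 after dexfenfluramine. The mean of this gene was lower in both drug groups, with log2 fold changes of -0.61 (SE 0.13) after pergolide and -0.30 (SE 0.13) after dexfenfluramine. After dexfenfluramine, neither SF3B3 nor SF3B2 passed the threshold against non-treated valves. For SF3B2, 4 of 5 dexfenfluramine valves lay within the range of the non-treated valves, and so did pergolide replicate 5. SF3B1 had the highest serotonin value of the family, 0.49 (SE 0.12).

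The PRPF family was lower after the drugs except for PRPF8, the large protein at the core of the U5 snRNP and of the catalytic centre. PRPF8 (ENSOCUG00000000081) had 307, 310.2, 306, 279 and 297 CPM in the non-treated valves, 297, 303, 293, 311 and 291 after serotonin, 392, 354, 348, 384 and 408 after pergolide and 370.5, 393, 366, 399 and 379.9 after dexfenfluramine. The 10 drug valves, from 348 to 408 CPM, did not overlap with the 10 others, from 279 to 311 CPM. Its log2 fold change was 0.33 (SE 0.06) after pergolide and 0.35 (SE 0.06) after dexfenfluramine, and -0.00 (SE 0.06) after serotonin. PRPF38B, which is related to PRPF38A, a factor of spliceosome activation, was the lowest of the family. PRPF38B (ENSOCUG00000027424) had 169.5, 114, 137, 118 and 115 CPM in the non-treated valves, 172, 225, 138, 164 and 163 after serotonin, 70.9, 74.2, 73.3, 67.7 and 76.9 after pergolide and 63.04, 64.1, 75.2, 76.97 and 75.02 after dexfenfluramine. All drug valves lay under all other valves, and serotonin replicate 2 was the highest of the 20. The fold changes were -0.85 (SE 0.12), -0.88 (SE 0.12) and 0.40 (SE 0.12) after pergolide, dexfenfluramine and serotonin.

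PRPF18 acts at the second step of splicing. PRPF18 (ENSOCUG00000027756) had 132, 114, 130.3, 135 and 116 CPM in the non-treated valves, 159, 143, 137, 147 and 144 after serotonin, 83.5, 75.00, 78.2, 75.1 and 70.98 after pergolide and 73.4, 83.9, 79.01, 85.2 and 80.9 after dexfenfluramine. The order of the groups was complete, since each serotonin valve was higher than each non-treated valve and each drug valve lower. Its log2 fold changes were 0.22 (SE 0.07), -0.71 (SE 0.07) and -0.64 (SE 0.07) after serotonin, pergolide and dexfenfluramine. PRPF38A (-0.57 and -0.53 after pergolide and dexfenfluramine) and PRPF4 of the tri-snRNP (-0.53 and -0.53) were lower in the mean of both drug groups as well.

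Of the 6 DDX helicases, 5 had log2 fold changes below 0 after each drug, and DDX39B had values above 0. Of the 5, 3 passed the threshold after pergolide and 4 after dexfenfluramine, beside 12.7% and 15.4% of all tested genes called lower. DDX39B (UAP56) acts in early spliceosome assembly and in the export of mRNA. DDX39B (ENSOCUG00000024126) had 84.05, 83.7, 85.8, 71.2 and 74.8 CPM in the non-treated valves, 75.7, 70.3, 69.3, 75.9 and 77.2 after serotonin, 109, 103, 97.99, 106 and 108 after pergolide and 121, 119, 109, 119 and 99.4 after dexfenfluramine. The drug valves were all higher than the other valves. Its log2 fold change was 0.39 (SE 0.07) after pergolide, 0.51 (SE 0.07) after dexfenfluramine and -0.12 (SE 0.07) after serotonin. DDX21 is a nucleolar helicase of ribosome biogenesis. DDX21 (ENSOCUG00000002888) had 77.6, 66.9, 77.1, 65.3 and 74.1 CPM in the non-treated valves, 77.3, 88.6, 77.4, 79.1 and 96.1 after serotonin, 54.6, 52.8, 49.1, 46.6 and 43.4 after pergolide and 43.7, 40.3, 56.3, 53.1 and 52.7 after dexfenfluramine. Its drug valves were all lower than the others, and serotonin and non-treated valves overlapped, with fold changes of -0.55 (SE 0.10), -0.55 (SE 0.10) and 0.21 (SE 0.10) in that order. DDX46, a helicase of the U2 snRNP, and DDX23, a helicase of the U5 snRNP, had drug values between -0.39 and -0.34 in both drugs. DDX1 and DDX42 were nearer to non-treated valves after pergolide, with -0.30 and -0.15, neither of which was called. After dexfenfluramine DDX1 had -0.45, which was called, and DDX42 had -0.21, which was not.

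DHX38, the counterpart of yeast Prp16, drives the spliceosome between its catalytic steps and was the only DEAH-box gene. DHX38 (ENSOCUG00000009067) had 65.7, 45.8, 54.4, 45.9 and 41.6 CPM in the non-treated valves, 54.5, 59.2, 52.3, 45.9 and 59.8 after serotonin, 40.03, 40.2, 42.4, 37.6 and 40.4 after pergolide and 34.4, 38.4, 42.3, 39.9 and 43.4 after dexfenfluramine. Both drugs overlapped with the lowest non-treated valve, replicate 5, while each drug valve was lower than each serotonin valve. The log2 fold change was -0.33 (SE 0.11) after pergolide, -0.35 (SE 0.11) after dexfenfluramine and 0.10 (SE 0.11) after serotonin.

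Of the 5 SR and SRRM genes, SRSF3 and SRSF7 had log2 fold changes above 0 and SRSF4, SRSF11 and SRRM1 below 0 after each drug. The pergolide values of SRSF7 and SRRM1 did not pass the threshold. SRSF3 is a small SR protein with roles in splicing, export and 3′ end choice. SRSF3 (ENSOCUG00000006684) had 95.6, 106, 96.9, 113 and 95.3 CPM in the non-treated valves, 107, 102, 106, 108 and 109.5 after serotonin, 118, 126, 121, 114 and 119.7 after pergolide and 126, 125, 139.8, 119 and 109 after dexfenfluramine. The pergolide valves were all above the non-treated and serotonin valves, and dexfenfluramine replicate 5 alone lay within their range. Its fold changes were small, 0.24 (SE 0.07) and 0.29 (SE 0.07) for pergolide and dexfenfluramine. SRSF4 (ENSOCUG00000001837) had 106, 74.2, 69.3, 69.4 and 74.6 CPM in the non-treated valves, 101, 99.7, 107, 101 and 98.03 after serotonin, 68.6, 65.4, 62.6, 58.9 and 57.6 after pergolide and 43.03, 52.9, 61.7, 53.1 and 62.5 after dexfenfluramine. In this SR protein gene the drug valves were lower than all others, and non-treated replicate 1 had the level of the serotonin valves, far above the other 4 of its group. The log2 fold change of SRSF4 was 0.37 (SE 0.11) after serotonin, -0.33 (SE 0.11) after pergolide and -0.52 (SE 0.11) after dexfenfluramine. With surrogate variables in limma-voom, its pergolide value was -0.12. SRSF11 encodes an SR-related protein. SRSF11 (ENSOCUG00000002001) had 139, 121, 143, 141 and 129 CPM in the non-treated valves, 158, 193, 139, 176 and 147 after serotonin, 78.2, 78.3, 82.6, 81.1 and 85.4 after pergolide and 72.9, 85.8, 99.5, 109.8 and 89.9 after dexfenfluramine. All drug valves were under all other valves, and its fold changes were -0.73 (SE 0.10), -0.56 (SE 0.10) and 0.27 (SE 0.10) after pergolide, dexfenfluramine and serotonin. SRRM1, a splicing coactivator with SR repeats, was nearer to the non-treated valves, with -0.19 and -0.21 for the drugs and 0.16 for serotonin.

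Of the 8 tested hnRNP genes, 6 had log2 fold changes below 0 and 2 above 0 after each drug. HNRNPAB, a relative of the AU-rich element protein HNRNPD, was the lowest. HNRNPAB (ENSOCUG00000026424) had 209.9, 156, 133, 159 and 165 CPM in the non-treated valves, 190.3, 254, 181, 184 and 217 after serotonin, 92.7, 90.7, 87.4, 93.7 and 86.1 after pergolide and 83.5, 82.03, 83.5, 83.5 and 102 after dexfenfluramine. The highest drug valve, at 102 CPM, stayed under the lowest other valve, at 133 CPM. The group means were 165 ± 28.1 CPM (SD, n = 5) in non-treated valves, 205 ± 30.4 CPM (SD, n = 5) after serotonin, 90.1 ± 3.30 CPM (SD, n = 5) after pergolide and 86.9 ± 8.51 CPM (SD, n = 5) after dexfenfluramine. Its log2 fold changes were 0.32 (SE 0.11), -0.87 (SE 0.11) and -0.92 (SE 0.11) in the same order. HNRNPM, a regulator of alternative splicing, had the highest serotonin value of the 49 genes. In the RefSeq annotation its locus overlaps 14 other annotated genes, and their part in its reads was not tested. HNRNPM (ENSOCUG00000024611) had 43.6, 26.3, 26.5, 27.1 and 20.2 CPM in the non-treated valves, 43.6, 76.9, 32.4, 42.9 and 50.00 after serotonin, 15.3, 21.5, 20.9, 17.6 and 14.1 after pergolide and 12.9, 17.9, 17.1, 18.1 and 24.7 after dexfenfluramine. Of the non-treated valves, 4 were below each serotonin valve, and replicate 1, at 43.6 CPM, was above 3 of them, of which the nearest was within 1 CPM. Non-treated replicate 5 was within the range of the drug valves. The fold changes were 0.79 (SE 0.22) after serotonin, -0.67 (SE 0.22) after pergolide and -0.64 (SE 0.22) after dexfenfluramine. With surrogate variables in limma-voom, the drug values of HNRNPM were -0.28 and -0.22.

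HNRNPLL, known for the alternative splicing of CD45 in lymphocytes, had the highest drug values of all 49 genes. HNRNPLL (ENSOCUG00000010233) had 15.9, 23.8, 25.5, 13.2 and 21.2 CPM in the non-treated valves, 24.5, 21.5, 23.7, 19.8 and 22.2 after serotonin, 36.4, 37.4, 33.1, 41.2 and 37.00 after pergolide and 31.4, 34.5, 43.02, 31.9 and 33.3 after dexfenfluramine. The drug valves, from 31.4 to 43.02 CPM, were apart from the others, from 13.2 to 25.5 CPM. Its log2 fold change was 0.88 (SE 0.14) after pergolide, 0.79 (SE 0.14) after dexfenfluramine and 0.15 (SE 0.15) after serotonin. HNRNPK, which binds C-rich RNA, was the other hnRNP gene that was higher, with 0.29 and 0.26. Lower values were found for HNRNPDL (-0.76 and -0.72), for HNRNPU, a protein of the nuclear scaffold (-0.41 and -0.37), for HNRNPD (-0.35 and -0.33) and for HNRNPR (-0.19 and -0.18).

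**Figure D3:**
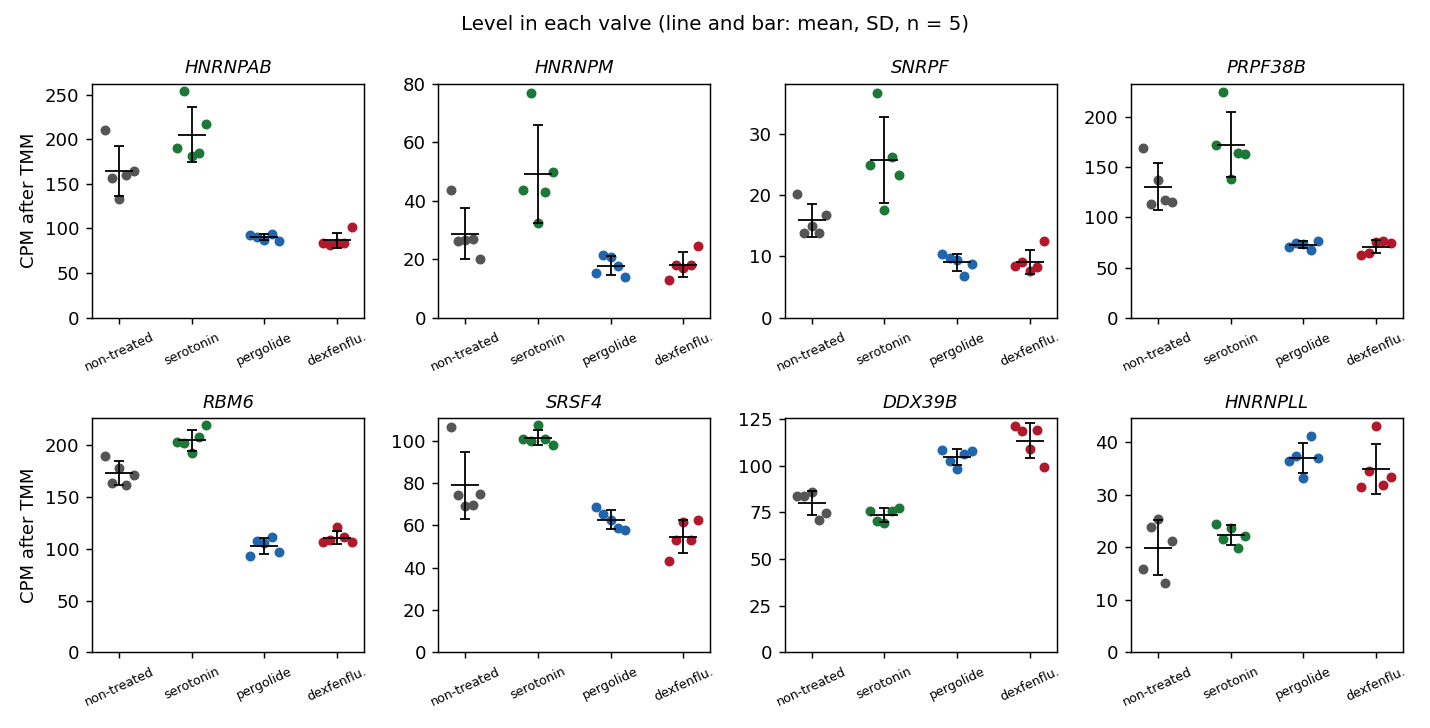
CPM after TMM normalization (y axis, from 0) of 8 of the genes in each of the 20 valves, with the mean and SD of the 5 valves of a group (dexfenflu. is dexfenfluramine). HNRNPAB, SNRPF, PRPF38B, RBM6 and SRSF4 are lower in each drug valve than in each other valve, HNRNPM overlaps through 1 non-treated valve, and DDX39B and HNRNPLL are higher in each drug valve.

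The RBM family was the largest. Of its 13 genes, 10 had log2 fold changes below 0 and 3 above 0 after each drug. Of the 10, 6 passed the threshold after pergolide and 5 after dexfenfluramine, beside 12.7% and 15.4% of all tested genes called lower. Of the 3, 1 passed it after each drug, beside 12.1% and 13.5% of all tested genes called higher. RBM6, a relative of RBM5, acts on alternative exons. RBM6 (ENSOCUG00000011638) had 189, 163, 177, 161 and 171 CPM in the non-treated valves, 202, 202, 192, 207 and 219 after serotonin, 92.9, 107, 105, 111 and 96.6 after pergolide and 106, 108, 121, 111 and 107 after dexfenfluramine. Serotonin valves were all above and drug valves all below the non-treated valves. Its log2 fold changes were 0.24 (SE 0.07) after serotonin, -0.75 (SE 0.07) after pergolide and -0.64 (SE 0.07) after dexfenfluramine, while RBM5 itself had 0.04, -0.19 and -0.07. RBM14-RBM4 is annotated as a read-through locus, so that its reads may belong to RBM14 or RBM4. RBM14-RBM4 (ENSOCUG00000004731) had 23.1, 18.7, 18.6, 16.5 and 17.7 CPM in the non-treated valves, 17.5, 13.9, 21.04, 16.6 and 20.5 after serotonin, 24.5, 28.4, 26.1, 29.2 and 26.7 after pergolide and 29.5, 30.5, 31.9, 29.1 and 29.98 after dexfenfluramine. All drug valves were above all others, with fold changes of 0.52 (SE 0.11) and 0.68 (SE 0.11). RBM14 and RBM4B, which share sequence or locus with it, had 0.26 and 0.21 after pergolide and 0.47 and 0.27 after dexfenfluramine.

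RBM12B is an RNA-binding protein with RRM domains. RBM12B (ENSOCUG00000010353) had 35.7, 28.2, 30.7, 43.8 and 36.8 CPM in the non-treated valves, 36.8, 36.7, 27.8, 41.03 and 36.8 after serotonin, 29.1, 25.3, 30.8, 21.5 and 32.02 after pergolide and 36.8, 30.5, 29.7, 34.5 and 31.1 after dexfenfluramine. The groups of RBM12B overlapped, and its log2 fold change was -0.34 (SE 0.13) after pergolide and -0.11 (SE 0.13) after dexfenfluramine. RBM8A, a core protein of the exon junction complex, had -0.58 and -0.73. RBM33 (-0.69 and -0.57), RBM27 (-0.49 and -0.53), RBM28 (-0.39 and -0.46), RBMX2 (-0.31 and -0.38) and RBM34 (-0.36 and -0.28) were lower after both drugs too, of which RBMX2 was called after neither drug and RBM34 after pergolide alone.

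RBM20, the heart splicing factor of titin, had the largest standard errors of the 49 genes. RBM20 (ENSOCUG00000016811) had 164, 107, 64.1, 137 and 103 CPM in the non-treated valves, 65.7, 143, 68.4, 107 and 102 after serotonin, 76.8, 77.2, 95.5, 55.4 and 61.6 after pergolide and 91.4, 58.6, 18.4, 95.98 and 74.5 after dexfenfluramine. All 4 groups overlapped, and dexfenfluramine replicate 3 had the lowest level and non-treated replicate 1 the highest. The log2 fold change was -0.64 (SE 0.32) after pergolide, -0.76 (SE 0.32) after dexfenfluramine and -0.24 (SE 0.32) after serotonin, none of which was called. With surrogate variables in limma-voom, the dexfenfluramine value was 0.08. The level of RBM20 was compared with the summed level of the 5 cardiomyocyte markers on a log2 scale over the 20 valves, as the only relation computed. Pearson's r was 0.947 and Spearman's rho 0.919 (permutation p = 1e-05 for each, 2-sided, the smallest that 100000 resamples can give). Without the 2 valves farthest from the median of the markers, r was 0.861 and rho 0.897 (n = 18). Within the groups, that is for deviations from group means permuted within groups, r was 0.950 and rho 0.904 (permutation p = 1e-05 and 2e-05). Without dexfenfluramine replicate 3 alone, r was 0.875. The part of cardiac muscle in the level of RBM20 was not tested.

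**Figure D4:**
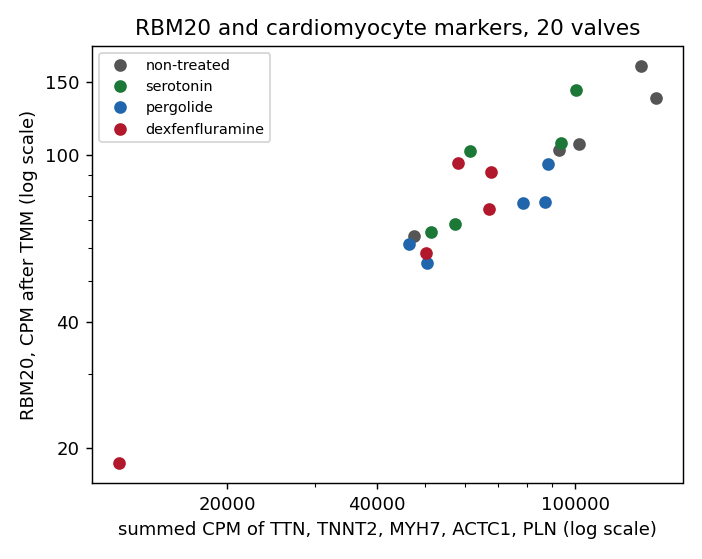
Level of RBM20 (y axis, CPM, log scale) against the summed level of TTN, TNNT2, MYH7, ACTC1 and PLN (x axis, CPM, log scale) in the 20 valves, coloured by group. Valves with higher marker levels have higher RBM20, and dexfenfluramine replicate 3 lies alone at 18.4 CPM of RBM20 and 12133 CPM of markers.

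The 3′ end factors were lower after pergolide. CSTF3 is a subunit of the cleavage stimulation factor, which binds downstream of the cleavage site. CSTF3 (ENSOCUG00000015417) had 48.3, 58.5, 60.7, 47.1 and 50.4 CPM in the non-treated valves, 48.2, 46.5, 54.9, 58.7 and 59.5 after serotonin, 41.8, 40.3, 43.8, 38.2 and 34.7 after pergolide and 38.1, 36.4, 42.5, 43.98 and 38.5 after dexfenfluramine. Each drug valve was lower than each other valve, and serotonin and non-treated valves covered the same range. Its log2 fold change was -0.42 (SE 0.10) after pergolide, -0.41 (SE 0.10) after dexfenfluramine and 0.01 (SE 0.10) after serotonin. CPSF6 is a subunit of cleavage factor Im. CPSF6 (ENSOCUG00000013505) had 354, 400.5, 538, 387 and 396 CPM in the non-treated valves, 494, 347, 454, 426 and 487 after serotonin, 324, 332, 311, 343 and 348 after pergolide and 343, 366, 369.9, 358 and 336 after dexfenfluramine. The pergolide valves were below all non-treated valves, dexfenfluramine valves overlapped with them, and non-treated replicate 3 was the highest of the 20. Its fold changes were -0.32 (SE 0.10) and -0.23 (SE 0.10) for pergolide and dexfenfluramine. With surrogate variables in limma-voom they were -0.49 and -0.45, and the serotonin value turned from 0.09 to -0.09.

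Other genes of splicing and 3′ end formation, 76 in a list written by symbol, were examined in the same fit. Symbols came from the study's DEG list alone, so that the 44 listed genes with a symbol are themselves selected. After pergolide 27 of the 44 were called lower and 10 higher, after dexfenfluramine 28 lower and 9 higher, and after serotonin none lower and 2 higher. Among the 3407 tested genes of the study's list outside the 51, to which the 44 belong, 28.1% were called lower and 28.3% higher after pergolide, 34% lower and 32.1% higher after dexfenfluramine, and 0.147% lower and 1.5% higher after serotonin. The 2 genes called after serotonin were SLU7, a factor of the second step of splicing, with 0.51 (SE 0.12), and PPIG, a nuclear cyclophilin with SR repeats, with 0.49 (SE 0.10). The median log2 fold changes of the 44 were 0.07 after serotonin, -0.37 after pergolide and -0.36 after dexfenfluramine. LUC7L3, a protein associated with U1, was lower after both drugs, at -0.71 (SE 0.13) and -0.72 (SE 0.13), and so was MAGOH of the exon junction complex, at -0.57 (SE 0.20) and -0.82 (SE 0.21). TIA1, a U-rich RNA binding protein, was higher, at 0.65 (SE 0.11) and 0.62 (SE 0.11), and so was PTBP3 of the polypyrimidine tract binding proteins, at 0.59 (SE 0.14) and 0.72 (SE 0.14).

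The drugs were then compared with serotonin, which does not use the non-treated valves. All these valves entered the choice of the genes, so that these values are given as a description. Of the 49 genes, 36 were called lower and 7 higher in pergolide than in serotonin valves, beside 15.1% and 12.4% of all tested genes, and 34 lower and 8 higher in dexfenfluramine valves, beside 16.4% and 13.9%. In the other 3407 genes of the study's list, 47.3% and 53.2% were called in either direction. The medians of the 49 genes were -0.53 and -0.52 (log2), with 0.03 over all genes in both. Both comparisons share the serotonin valves. Markers of other cells differed here too. TNNT2 was called lower for both drugs, at -2.20 and -2.72 (log2). The other cardiomyocyte markers changed less for pergolide, at 0.09 (TTN), 0.31 (ACTC1), -0.40 (MYH7) and -0.43 (PLN). For dexfenfluramine they were at -0.36, -0.37, -0.86 and -0.89 in the same order. PECAM1 was called lower for pergolide, at -0.83, and MYH11 for dexfenfluramine, at -1.41. COL1A2, COL3A1 and PDGFRB were called higher for both drugs and COL1A1 for dexfenfluramine alone. None of the other markers was called. The part of these cells in the differences from serotonin valves was not tested.

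In the comparison with serotonin valves, the most negative values were those of SNRPF and HNRNPM. SNRPF had -1.51 (SE 0.18) for pergolide and -1.48 (SE 0.18) for dexfenfluramine, HNRNPM had -1.46 (SE 0.22) and -1.43 (SE 0.22), LSM3 had -1.35 (SE 0.19) and -1.12 (SE 0.19), and SNRNP27 had -1.11 (SE 0.15) and -1.34 (SE 0.16). PRPF38B (-1.25 and -1.28) and HNRNPAB (-1.19 and -1.24) were close to them. Among the genes that were higher than in serotonin valves were HNRNPLL, 0.73 (SE 0.14) and 0.64 (SE 0.14), RBM14-RBM4, 0.59 (SE 0.11) and 0.75 (SE 0.11), and DDX39B, 0.51 (SE 0.07) and 0.62 (SE 0.07). Genes near to non-treated valves after the drugs could still differ from serotonin valves. DDX42, a helicase associated with SF3b, was called in neither drug against non-treated valves and had -0.42 (SE 0.09) and -0.48 (SE 0.09) against serotonin, both called. RBM20 and RBM4B were called in none of the 4 comparisons of a drug with non-treated or serotonin valves. No value overlapped between the groups for 39 genes in pergolide and 36 in dexfenfluramine against serotonin, beside 20.3% and 20.9% of all tested genes.

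Pergolide and dexfenfluramine were compared with each other as the comparison that was not used in choosing the genes, although the same drug valves entered that choice. None of the 49 genes was called by edgeR's quasi-likelihood test, nor by any alternative, and none of all 8683 tested genes was called (0%). At an unadjusted p-value under 0.05 the difference was found in 1 of the 49 genes, beside 7.06% of all tested genes. This gene was SF3B2, which was higher after dexfenfluramine by 0.31 (SE 0.13), with a 95% interval of 0.03 to 0.59 and an adjusted p-value of 0.692 in edgeR. SF3B3 differed by -0.13 (SE 0.07), with an interval of -0.28 to 0.02 and an adjusted p-value of 0.724, and RBM12B by 0.23 (SE 0.13), with an interval of -0.04 to 0.50 and an adjusted p-value of 0.738. Adjusted p-values of the 49 genes were at least 0.692.

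The differences between the drugs lay between -0.23 and 0.31 (log2), with a median of 0.01. The 95% intervals reached from -0.78 at the lowest, in RBM20, to 0.64 at the highest, in LSM3. For 43 of the 49 genes the whole interval lay within 0.5 of 0 on the log2 scale, and for all 49 within 1. For HNRNPAB, the interval was -0.28 to 0.18, for PRPF38B -0.29 to 0.22 and for HNRNPLL -0.36 to 0.19. Differences inside these intervals could not be told apart with 5 valves in a group, and a p-value above the threshold does not show that the drugs act alike. In no gene of the 49 did the valves of one drug lie wholly above those of the other, beside 1.43% of all tested genes.

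**Figure D5:**
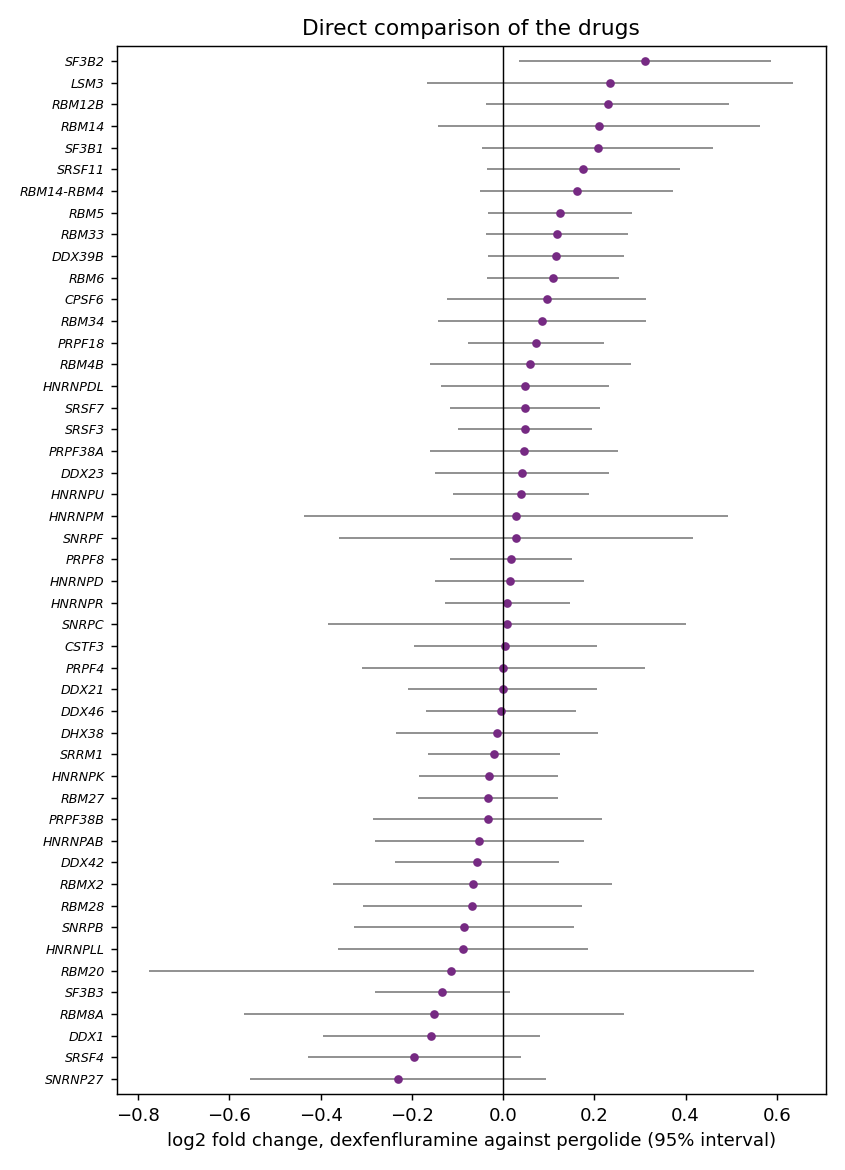
Log2 fold change of dexfenfluramine against pergolide (x axis) for the tested genes (all but 1 of the 49), with the 95% interval of edgeR's fit as a line. SF3B2, at 0.31, is the only gene whose interval leaves out 0, and RBM20 has the widest interval.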

How the data were processed

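RNA of 20 tricuspid valves, 5 in each of 4 groups, had been sequenced. The deposited values are whole-number read counts per Ensembl gene, which the authors made without normalization: ribosomal RNA was depleted, stranded libraries were prepared, and reads were aligned to oryCun2 with TopHat (TopHat2 2.1.1 in the submitters' processing notes, which also name Picard) and counted with HTSeq in union mode. Which annotation release and strand setting were used, and how reads with several positions were treated, is not given in the sources used here. The authors' later steps, HTSFilter, svaseq, RUVr and limma-voom, are not in the counts.

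Columns were matched to samples by letter and number. With edgeR 4.0.16 in R 4.3.3, TMM factors were computed and filterByExpr left 8683 genes. All 20 valves were fitted together with edgeR's quasi-likelihood test, p-values were adjusted by the Benjamini-Hochberg method over these genes, and the threshold was 0.05. Log2 CPM had a prior count of 2. Intervals are 95% intervals of the fit, and 5 valves per group limit the precision. The scripts were tested on simulated data. Levels were not compared between genes, since gene lengths were not used here.

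The members and the lists were chosen with earlier results of these data known. Of the members, 40 identifiers were taken as printed in the study's list and 11 after removal of a surplus zero. Genes named with their values in each valve were the 2 of each family with the largest mean change after the drugs and at least 20 reads on average, the highest of each family, the 3 with the smallest p-value between the drugs and the 3 with the largest serotonin change.

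Alternatives were DESeq2 1.42.0, limma-voom (limma 3.58.1), svaseq (sva 3.50.0), the size factors of DESeq2 or the upper quartile in edgeR, a filter of 10 counts in each valve or none, a replicate block, only the 2 groups compared, and each valve left out in turn. HTSFilter and RUVr were not run. The values of 1 member are not reported here, although it is included in the counts and medians. Python 3.11.15 with scipy 1.17.1, numpy 2.4.6, pandas 2.3.3 and matplotlib 3.10.9 was used for the rest.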

Additional observations from a re-analysis of the deposited data

Results flagged for a closer look

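In 100 groups of 5 valves (the named genes and the summary measures), 5 held a valve that stood apart from the other 4 by Dixon's criterion, and chance alone marks about 1 group in 20. CPSF6 had 538 CPM in non-treated replicate 3, while the other 4 valves of the group had 354 to 400.5 CPM. SRSF4 had 106 CPM in non-treated replicate 1, with 69.3 to 74.6 CPM in the others. HNRNPAB had 102 CPM in dexfenfluramine replicate 5, with 82.0 to 83.5 CPM in the others. HNRNPLL had 43.0 CPM in dexfenfluramine replicate 3, with 31.4 to 34.5 CPM in the others. SF3B3 had 73.6 CPM in dexfenfluramine replicate 4, with 67.6 to 68.9 CPM in the others.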

How the results depend on the processing

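The count of genes called after serotonin was 0 in the fit reported, 1 in limma-voom, 11 in limma-voom with surrogate variables from svaseq and 8 in DESeq2, and between 0 and 8 with each valve left out, the 8 being without non-treated replicate 1. The median after serotonin was 0.21 and that after dexfenfluramine -0.31 with surrogate variables. Leaving out valves gave 33 to 39 calls for pergolide and 32 to 36 for dexfenfluramine against non-treated valves. Beside them, 20.2% to 26% and 23.1% to 32% of all genes were called in those fits. Against serotonin valves there were 41 to 44 and 40 to 43 calls, beside 23.7% to 25.2% and 25.2% to 28.8% of all genes. The median for dexfenfluramine against serotonin lay between -0.58 and -0.48, the -0.58 being without dexfenfluramine replicate 4. The number of genes without overlap was 26 with the size factors of DESeq2, an alternative added after the data were seen. The share of all tested genes is not given for this setting. With surrogate variables, 30 genes were called for pergolide and 25 for dexfenfluramine against non-treated valves, beside 21.4% and 17.3% of all genes in that fit.

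Replicate numbers were not used as pairs in the fit reported. Deviations of same-numbered valves had a mean correlation of -0.02 over 30 pairs, with a range from -0.34 to 0.49. Of these pairs, 6 were over 0.1, and the mean alone does not show that no pair was linked. With the replicate block, 0, 35 and 34 genes were called for serotonin, pergolide and dexfenfluramine against non-treated valves, beside 0.0115%, 22.9% and 27.2% of all genes. For the drugs against serotonin, 43 and 42 were called in this fit, beside 25.7% and 28.6%, and between the drugs 0, beside 0%. Among named genes, the call against serotonin valves was lost in 18 combinations of gene and setting, which concerned RBM12B for pergolide and CPSF6 and SRSF3 for dexfenfluramine, and it was gained in 4, all of SF3B3 for dexfenfluramine. No called value of a named gene changed its sign. CSTF2T and HNRNPA1L2, with few reads, did not pass the filter of the fit reported. Without a filter all 51 genes were tested, but fold changes of these few reads are not given here.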
